A study of Homo sapiens
Mus musculus with 2 samples.

Results

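Expression of 8 BCL2 family genes was examined in single lymphocytes profiled by Drop-seq, a method that captures cells in droplets with barcoded beads. The genes were mouse Bcl2, Mcl1, Bcl2l1 and Bax and human BCL2, MCL1, BCL2L1 and BAX, chosen by identifier, and made up 8 of the 29259 genes in the count tables (4 of 14740 mouse and 4 of 14519 human genes). All 8 genes had molecules in both libraries. The cells came from an equal mixture of 4 cultured lines, of which EL4 and Jurkat are T cell lines of mouse and human, IVA12 is of mouse B cell origin and TALL-104 is a further T cell line of human origin. All are established lines and not primary lymphocytes. The 150 library was loaded at 150 cells per µl and the 300 library at 300 cells per µl, each with an equal mixture of these lines. The sample descriptions do not say whether both libraries came from the same preparation of cells. Neither concentration had a replicate.

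The BCL2 family controls whether the outer membrane of mitochondria is opened during apoptosis. Bcl2, Mcl1 and Bcl-xL, which is encoded by Bcl2l1, are survival proteins that bind and restrain the proteins that open it. Bax is one of these pore-forming effectors, so the set holds a death gene beside its survival genes. In lymphocytes Bcl2 is known for maintaining resting T and B cells, and Mcl1 for maintaining many stages, plasma cells among them.

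Cells were barcodes with at least 1000 UMIs (unique molecular identifiers, by which each captured molecule is counted once) of which at least 90% came from 1 species. The 150 library held 2398956 UMIs, 87 human cells and 85 mouse cells, and the 300 library held 8707135 UMIs, 318 human cells and 685 mouse cells. Median depth in the cell groups lay between 3714 and 13629 UMIs per cell. The libraries shared 1 barcode sequence among all barcodes and 0 among cells. Clustering of mouse cells without the members gave 7 clusters, which were joined into 2 groups, a number fixed beforehand. The groups were called mouse A (50 cells in the 150 library, 387 in the 300 library) and mouse B (35 and 298 cells). Marker genes could not be matched to the identifiers, so neither group was named as EL4 or IVA12, and human cells were kept as 1 class. Levels are given in CPM, the UMIs of a gene per 1000000 UMIs of its species over the summed cells of a group. Their 95% Poisson intervals cover counting error only. The method counts transcript ends, so no scaling to transcript length was applied. How efficiently each gene was captured was not measured, so a level is compared between cell groups for 1 gene and not between genes.

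The mouse groups differed in their survival genes. Bcl2 (mm10_ENSMUSG00000057329) was higher in mouse A, Mcl1 (mm10_ENSMUSG00000038612) and Bcl2l1 (mm10_ENSMUSG00000007659) were higher in mouse B, and no difference was detected for Bax (mm10_ENSMUSG00000003873). The comparison rested on 4 sums of UMIs, 1 for each group and library, and used edgeR's quasi-likelihood test with the library as a block. Of 8925 mouse genes tested, 56.7% passed an adjusted p of 0.05, 29.1% as higher in mouse A and 27.7% as higher in mouse B. In this fit, the 3 calls among 4 members therefore stand against a background in which most genes differed. DESeq2, run as an alternative, called 1738 of 10359 genes, with Bcl2 and Mcl1 but not Bcl2l1 among them. In edgeR the median absolute log2 fold change over all genes tested was 0.615, and those of Bcl2, Mcl1 and Bcl2l1 lay at percentiles 90.9, 87.9 and 87.9.

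**Figure D1:**
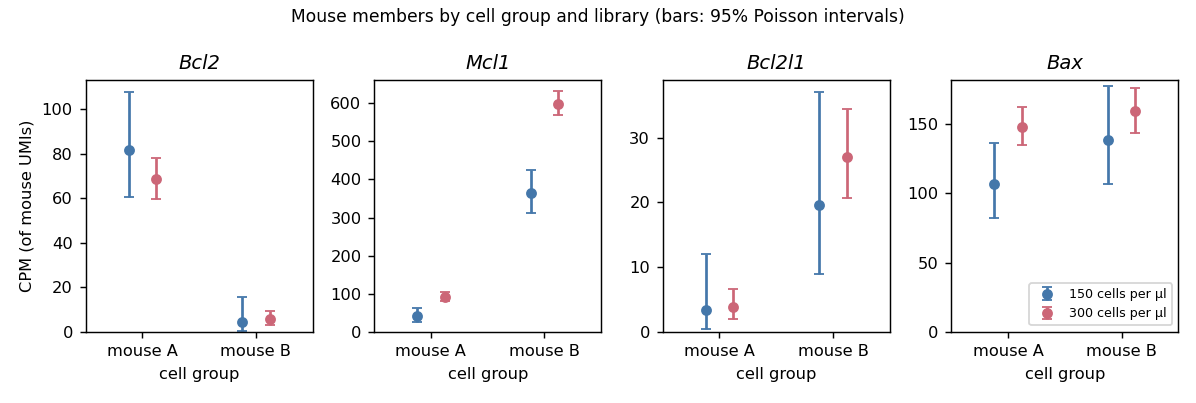
Levels of the 4 mouse members (CPM of mouse UMIs, linear axes from 0) in mouse A and mouse B, with 1 point per library and 95% Poisson intervals as bars. Bcl2 lies higher in mouse A, Mcl1 and Bcl2l1 lie higher in mouse B, and the Bax intervals of both groups overlap in each library.

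Bcl2, the founding survival gene of the family, was measured in mouse A at 81.7 CPM (60.4 to 108) in the 150 library and 68.6 CPM (59.8 to 78.3) in the 300 library, from 49 and 218 UMIs. In mouse B it was measured at 4.34 CPM (0.526 to 15.7) and 5.56 CPM (2.96 to 9.51), from 2 and 13 UMIs. Mouse A was high and mouse B low in each library, and their intervals did not overlap. The log2 difference of mouse A minus mouse B was 3.74 ± 0.31 (SE, adjusted p 7.25e-32, edgeR quasi-likelihood test with Benjamini-Hochberg adjustment), or a 13.3-fold higher level in mouse A. Taken by library, the ratio was 18.8 (counting interval 4.94 to 160.0) and 12.3 (7.06 to 23.5), so the intervals of the libraries overlapped.

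The few Bcl2 molecules of mouse B were unevenly spread. They lay in 9 cells. All 9 also held Mcl1, but so did 284 of all 333 mouse B cells. In the 300 library Mcl1 was held by 84 of 90 mouse B cells of 5000 to under 10000 UMIs and by 89 of 89 above. Holding Mcl1 thus did not set the cells with Bcl2 apart. Of 21 mouse B cells over 20000 UMIs, 2 held Bcl2, and these cells of 25083 and 23232 UMIs carried 4 and 2 of the 13 molecules in the 300 library. Both belonged to cluster 5, a cluster of 54 mouse B cells of the 300 library with a median depth of 1336 UMIs, which held 7 of the 13 molecules. Without this cluster, a setting chosen after seeing the data, the log2 difference was 4.56 ± 0.35 (SE, edgeR). The cluster was picked as the mouse B cluster with the most Bcl2 UMIs. Its Bcl2 level of 49.7 CPM lay above the 5.56 CPM of mouse B in the 300 library. Leaving it out therefore had to widen the difference, and the larger value is no support for it. Whether such barcodes held RNA of both groups was not tested.

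Mcl1 encodes a survival protein that is rapidly turned over. In mouse B it was measured at 365 CPM (312 to 424) in the 150 library and 599 CPM (568 to 632) in the 300 library, from 168 and 1401 UMIs. In mouse A it was measured at 41.7 CPM (27.0 to 61.5) and 92.2 CPM (81.9 to 103), from 25 and 293 UMIs. Mouse B was the higher group in each library, with no overlap of intervals. The log2 difference of mouse A minus mouse B was −2.75 ± 0.14 (SE, adjusted p 3.63e-88, edgeR), or a 6.74-fold higher level in mouse B. The ratio of mouse B over mouse A was 8.75 (5.73 to 13.9) in the 150 library and 6.5 (5.73 to 7.4) in the 300 library.

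Bcl2l1, which encodes the survival protein Bcl-xL, was sparse in both groups. In mouse B it was measured at 19.5 CPM (8.94 to 37.1) and 27.0 CPM (20.7 to 34.5), from 9 and 63 UMIs. In mouse A it was measured at 3.33 CPM (0.404 to 12) and 3.78 CPM (1.95 to 6.6), from 2 and 12 UMIs. Mouse B was higher in each library, with overlapping intervals of the levels in the 150 library and separate ones in the 300 library. The ratio of mouse B over mouse A was 5.86 (1.21 to 55.8) and 7.14 (3.81 to 14.5), and both intervals exclude no change. The log2 difference of mouse A minus mouse B was −2.74 ± 0.44 (SE, adjusted p 2.93e-09, edgeR), or a 6.69-fold higher level in mouse B. DESeq2 gave a difference of −2.71 ± 1.14 (SE, adjusted p 0.089) and did not call it.

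Bax, the pore-forming effector, was measured in mouse A at 107 CPM (82.2 to 136) and 148 CPM (135 to 162), from 64 and 471 UMIs. In mouse B it was measured at 139 CPM (107 to 178) and 160 CPM (144 to 177), from 64 and 373 UMIs. The intervals of the groups overlapped in each library. The log2 difference of mouse A minus mouse B was −0.14 ± 0.15 (SE, 95% interval −0.44 to 0.15, adjusted p 0.415, edgeR). The interval includes 0, so no direction is given.

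Both libraries came from the same lines, and whether they came from separate cultures was not established. These p-values are therefore not taken to measure variation between cultures. The block removes shifts shared by both groups of a library, which leaves the spread of the group difference between the libraries. With the block, 1 residual degree of freedom was left, and the spread was estimated mostly from all genes together.

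**Figure D2:**
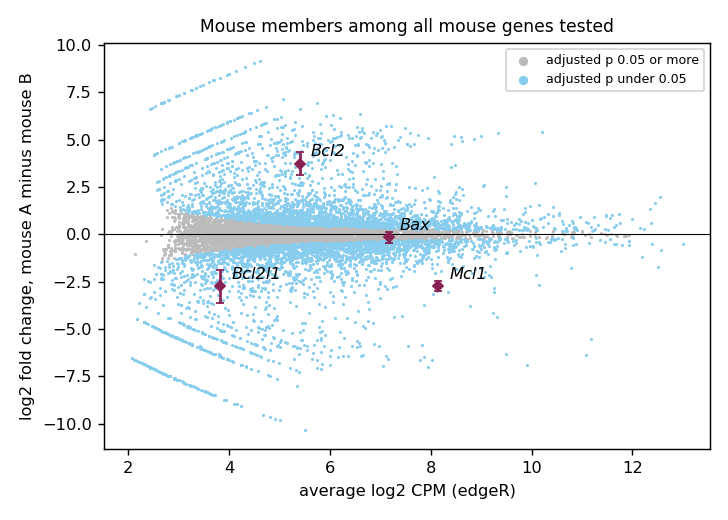
Log2 fold change of mouse A minus mouse B against average log2 CPM for all 8925 mouse genes tested (edgeR), with genes of adjusted p under 0.05 in a separate color. The members are marked with 95% intervals, Bcl2 at 3.74, Mcl1 at −2.75, Bcl2l1 at −2.74 and Bax at −0.14.

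The same UMIs were expressed as shares of the members' molecules in each mouse group. A share falls when that of another member rises, so the shares restate the differences above and are no separate result. Bcl2 took 35.0% of the 140 member UMIs of mouse A in the 150 library (95% Clopper-Pearson interval 27.1% to 43.5%) and 21.9% of 994 in the 300 library (19.4% to 24.6%). In mouse B it took 0.823% of 243 (0.0998% to 2.94%) and 0.703% of 1850 (0.375% to 1.2%). The share of Mcl1 in mouse A was 17.9% and 29.5%, against 69.1% (62.9% to 74.9%) and 75.7% (73.7% to 77.7%) in mouse B. These shares put the captured member molecules of mouse A mostly in Bcl2, Mcl1 and Bax, and those of mouse B mostly in Mcl1. Bax took 45.7% and 47.4% of the molecules in mouse A but 26.3% and 20.2% in mouse B, while its CPM did not differ detectably. Bcl2l1 took 1.43% and 1.21% of them in mouse A, against 3.7% and 3.41% in mouse B.

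Detection in single cells was examined at equal depth by drawing 2000 UMIs from each cell, which left out 7 and 45 cells of mouse A and 5 and 64 of mouse B as too shallow. Bcl2 was found in 18.6% of 43 mouse A cells of the 150 library (8.39% to 33.4%) and 15.8% of 342 of the 300 library (12.1% to 20.1%). In mouse B it was found in 3.33% of 30 cells (0.0844% to 17.2%) and 0.855% of 234 cells (0.104% to 3.05%). The groups' intervals were apart in the 300 library and overlapped in the 150 library.

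Mcl1 was found at this depth in 40.0% (22.7% to 59.4%) and 65.8% (59.3% to 71.9%) of mouse B cells, and in 9.3% (2.59% to 22.1%) and 18.7% (14.7% to 23.3%) of mouse A cells. Mouse B was higher in each library with no overlap. Bax was found in 14.0% and 27.2% of the cells of mouse A and in 23.3% and 25.6% of those of mouse B. Bcl2l1 was found in 0 of 43 and 2 of 342 mouse A cells, and in 0 of 30 and 13 of 234 mouse B cells. A count of 0 allows a share of up to 6.98% of 43 cells and 10% of 30 cells, so the 150 library could not show a difference for Bcl2l1 at this depth. Without thinning, at median depths of 10882 and 7509 UMIs per cell in mouse A and of 13629 and 6566 in mouse B, Bcl2 was found in 48.0% and 38.0% of mouse A cells and 2.86% and 2.68% of mouse B cells. Mcl1 was then found in 38.0% and 49.1% of the cells of mouse A and 80.0% and 85.9% of those of mouse B. Bcl2l1 was found in 4.0% (0.488% to 13.7%) and 3.1% (1.61% to 5.35%) of mouse A against 20.0% (8.44% to 36.9%) and 15.4% (11.5% to 20.0%) of mouse B.

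**Figure D3:**
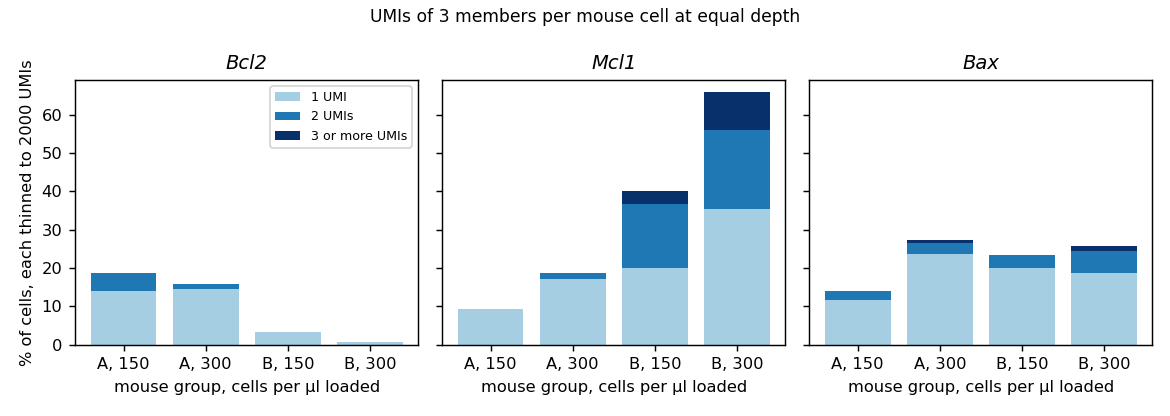
Percent of mouse cells with 1, 2 and 3 or more UMIs of Bcl2, Mcl1 and Bax after thinning to 2000 UMIs, by mouse group (A or B) and cells per µl loaded. Mcl1 is found in 65.8% of mouse B cells of the 300 library, where 23 of 234 cells hold 3 or more UMIs, and Bcl2 is found mostly in mouse A.

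Human cells, which should lack mouse transcripts, gave the background of mouse RNA at the same depth. Bcl2 was found in 1.22% of 82 human cells of the 150 library (0.0309% to 6.61%) and 1.06% of 282 of the 300 library (0.22% to 3.08%). The 0.855% of mouse B cells with Bcl2 in the 300 library did not exceed this, so expression of Bcl2 in mouse B is not read from it. Without thinning, Bcl2 was found in 2.68% of mouse B cells (1.17% to 5.22%) and 1.26% of human cells (0.344% to 3.19%) of that library, at unequal depths. Bcl2l1 was found in 1.22% (0.0309% to 6.61%) and 0.355% (0.00898% to 1.96%) of human cells, with intervals that overlapped those of mouse A. Without thinning it was found in 4.0% and 3.1% of mouse A cells and 1.15% and 0.629% of human cells. Mcl1 was found in 1.22% (0.0309% to 6.61%) and 3.19% (1.47% to 5.97%) of human cells. Bax was found in 0% (0.0% to 4.4%) and 0.709% (0.086% to 2.54%). These shares were below those of both mouse groups. The intervals were apart except for Mcl1 in the 150 library, where that of human cells overlapped that of mouse A (2.59% to 22.1%). Mcl1 in mouse A was thus not resolved from this background there at this depth. Mouse molecules made up a median of 1.66% and 3.6% of the UMIs of human cells.

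Mcl1 molecules were spread over many mouse B cells. In thinned mouse B cells of the 300 library, Mcl1 had 0 UMIs in 80 cells, 1 in 83, 2 in 48 and 3 or more in 23. The largest unthinned count in a cell was 41 UMIs for Mcl1 in mouse B, 9 for Bcl2 in mouse A and 11 for Bax in mouse A.

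No tie between survival and effector genes within cells was detectable in the 300 library. In thinned mouse A cells, Bax was found in 25.9% of 54 cells with Bcl2 (15% to 39.7%) and 27.4% of 288 cells without it (22.4% to 33.0%). It was found in 18.8% of 64 mouse A cells with Mcl1 (10.1% to 30.5%) and 29.1% of 278 without it (23.9% to 34.9%). In mouse B, Bax was found in 25.3% of 154 cells with Mcl1 (18.7% to 33.0%) and 26.2% of 80 without it (17.0% to 37.3%). It was found in 38.5% of 13 mouse B cells with Bcl2l1 (13.9% to 68.4%) and 24.9% of 221 without it (19.3% to 31.1%). Intervals overlapped in all 4 comparisons. For the pair of survival genes, Mcl1 was found in 13.0% of the mouse A cells with Bcl2 (5.37% to 24.9%) and 19.8% of those without it (15.3% to 24.9%), again with overlap. In the 150 library 8 thinned mouse A cells held Bcl2, too few to compare.

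In the 300 library Mcl1 was higher in mouse B at each depth of cell. Its level in mouse B was 791 CPM (610.5 to 1008) in cells of 1000 to under 2000 UMIs, 595 CPM (492 to 713) up to 5000, 605 CPM (547 to 667) up to 10000 and 586 CPM (547 to 628) above. In mouse A it was 128 CPM (55.4 to 253), 145 CPM (101 to 200.2), 80.9 CPM (65.5 to 98.8) and 91.1 CPM (77.2 to 107) over the same classes. The groups' intervals were apart in each of the 4 classes. In the 150 library the order was the other way in the shallow classes, on few molecules: cells of 1000 to under 2000 UMIs had 342 CPM (70.5 to 999.1, 3 UMIs) in mouse A and 147 CPM (3.72 to 818.5, 1 UMI) in mouse B, and those up to 5000 had 1 and 0 UMIs. In the 300 library Bcl2 in mouse A stayed between 48.1 and 76.3 CPM over the classes, and in mouse B it was at 0, 0, 3.05 and 7.84 CPM. In the shallowest class the Bcl2 intervals overlapped. Bax in mouse B was measured at 256 CPM (158 to 391) in the shallowest and 139 CPM (120.1 to 160) in the deepest class.

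**Figure D4:**
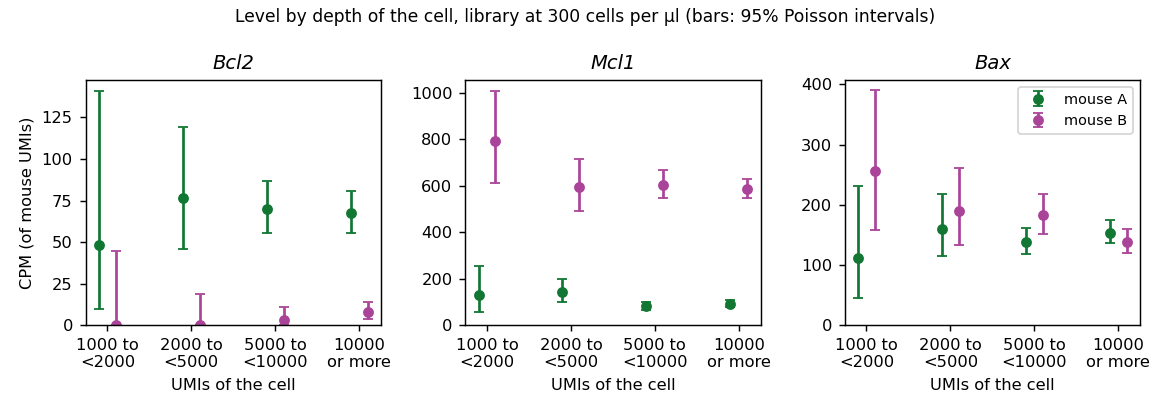
Levels of Bcl2, Mcl1 and Bax (CPM of mouse UMIs, linear axes from 0) in mouse A and mouse B in the 300 library, by UMIs of the cell, with 95% Poisson intervals as bars. Mcl1 is higher in mouse B in all 4 depth classes, from 586 to 791 CPM, and Bax intervals of the groups overlap in each class.

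The same split held in the deep clusters of each group. In the 300 library Mcl1 was measured at 560 CPM (521 to 600.3) in cluster 2 and 681 CPM (622 to 743) in cluster 4 of mouse B. In mouse A it was measured at 90.6 CPM (78.3 to 104) in cluster 1 and 91.2 CPM (73.4 to 112) in cluster 3. Mcl1 was thus alike in these deep mouse A clusters, while the intervals of the mouse B clusters did not overlap. Cluster 6 of mouse A, not a deep cluster, had 283 CPM (77.2 to 725, 4 UMIs) in the 150 library. Cluster 1 had 23.9 CPM (9.62 to 49.3) there, with no overlap. In the 300 library cluster 6 had 179 CPM (81.7 to 339, 9 UMIs), which overlapped clusters 1 and 3. Bcl2 was measured at 66.2 CPM (55.7 to 78.1) in cluster 1 and 74.2 CPM (58.2 to 93.1) in cluster 3. In mouse B it was at 3.55 CPM (1.15 to 8.28) in cluster 2 and 1.35 CPM (0.0342 to 7.525) in cluster 4. Cluster 5 of mouse B, not a deep cluster, had 49.7 CPM of Bcl2 (19.99 to 102.4). That interval, from 7 UMIs in 3 cells, overlapped those of the mouse A clusters. Bax was measured at 136 CPM (118 to 157) in cluster 2 and 190 CPM (160.3 to 225) in cluster 4. Cluster 4 thus had the higher measured levels of both Mcl1 and Bax than cluster 2 in the 300 library. These intervals leave out the spread between cells, and the difference between the clusters was not tested. In the 150 library the intervals of these clusters overlapped for both genes.

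Over 8 sums, each a mouse cluster in 1 library with at least 20 cells, log2 levels of Mcl1 and Bcl2l1 correlated at r = 0.91 and those of Bcl2 and Mcl1 at r = −0.83. The sums share libraries and differ in depth, and the values describe the split between the groups. Bax correlated at r = 0.70 with Mcl1, 0.57 with Bcl2l1 and −0.28 with Bcl2. Identifiers could not be paired with symbols, so no gene outside the family is named as similar.

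The 2 libraries were set side by side with no test. The median gene was itself higher in the 300 library, by 0.17 in mouse A, 0.19 in mouse B and 0.14 in human cells on the log2 scale. Mcl1 was higher in the 300 library in both mouse groups, with a ratio of 2.21 (counting interval 1.47 to 3.47) in mouse A and 1.64 (1.4 to 1.94) in mouse B. Less the median shift, the log2 ratios of Mcl1 were 0.98 and 0.52. In mouse A, 1 of the 3 members with at least 20 UMIs (Mcl1, beside Bcl2 and Bax) was past 2-fold, where 9.61% of 8713 genes were. Less the median shift, 0 of these 3 were. In mouse B, 0 of 3 (Mcl1, Bcl2l1 and Bax) were past 2-fold, where 12.7% of 8393 genes were.

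The Mcl1 ratio of mouse A depended on how cells were weighted. With each cell weighted equally, Mcl1 was at 83.5 CPM in the 150 library and 102 CPM in the 300 library. In the 150 library, 4 of its 25 UMIs came from the 9 cells of cluster 6, whose median depth was 1305 UMIs. Bax had a ratio of 1.39 (1.07 to 1.83) in mouse A and 1.15 (0.879 to 1.52) in mouse B. Bcl2 in mouse A had a ratio of 0.84 (0.614 to 1.17), and Bcl2l1 in mouse B had 1.38 (0.682 to 3.15), with intervals that include no change.

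The human members were sparse. MCL1 (hg19_ENSG00000143384), the human orthologue of Mcl1, was measured at 32.4 CPM of human UMIs (19.8 to 50.1) in the 150 library and 40.0 CPM (30.0 to 52.3) in the 300 library, from 20 and 53 UMIs. BCL2 (hg19_ENSG00000171791) was measured at 17.8 CPM (8.91 to 31.9) and 15.1 CPM (9.22 to 23.3), from 11 and 20 UMIs. BCL2L1 (hg19_ENSG00000171552), which encodes BCL-xL, was measured at 14.6 CPM (6.68 to 27.7) and 24.9 CPM (17.1 to 35.0), from 9 and 33 UMIs. The intervals of the libraries overlapped for each of these survival genes. Their ratios of the 300 over the 150 library were 1.23 (0.725 to 2.18) for MCL1, 0.846 (0.386 to 1.95) for BCL2 and 1.71 (0.799 to 4.05) for BCL2L1. Of these 3 genes, the human members with at least 20 UMIs, 0 were past 2-fold, where 7.59% of 7995 human genes were.

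BAX (hg19_ENSG00000087088), the human effector, was found with 2 UMIs among 87 human cells of the 150 library and with 17 UMIs among 318 of the 300 library, at most 1 UMI in a cell. Its level was 3.24 CPM (0.393 to 11.7) and 12.8 CPM (7.47 to 20.5). The ratio of 3.95 had a counting interval of 0.939 to 35.3, so a difference between the libraries was not detectable at this depth. BAX took 4.76% of the 42 human member UMIs in the 150 library (0.582% to 16.2%) and 13.8% of 123 in the 300 library (8.26% to 21.2%). MCL1 took 47.6% (32.0% to 63.6%) and 43.1% (34.2% to 52.3%). Mouse and human shares refer to different genes and were not compared by a test.

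**Figure D5:**
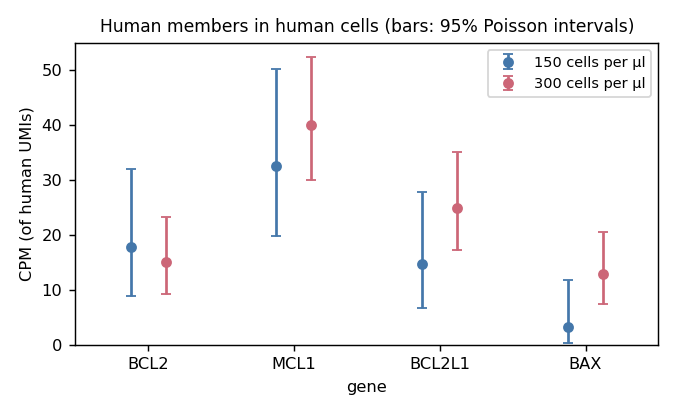
Levels of the 4 human members (CPM of human UMIs, linear axis from 0) in human cells, with 1 point per library and 95% Poisson intervals as bars. The intervals of the libraries overlap for each gene, and BAX in the 150 library rests on 2 UMIs.

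In the 300 library, the human members were more often found in human than in mouse cells. After thinning, MCL1 was found in 5.67% of 282 human cells (3.28% to 9.05%), BCL2 in 3.19% (1.47% to 5.97%), BCL2L1 in 5.32% (3.01% to 8.62%) and BAX in 3.55% (1.71% to 6.42%). Of 342 mouse A cells, 1 held MCL1 and 0 held each of the others, which allows up to 0.877%. For BAX this depended on the thinning. After thinning to 1000 UMIs it was found in 1 of 318 human cells (0.314%, 0.00796% to 1.74%). That was not above the 0.775% that 0 of 387 mouse A cells allows. Without thinning BAX was found in 5.35% of 318 human cells (3.14% to 8.42%) and 0 of 387 mouse A cells, at unequal depths. In the 150 library MCL1 was found in 7.32% of 82 human cells (2.73% to 15.2%), BCL2 and BCL2L1 each in 3.66% (0.761% to 10.3%), and BAX in 0 of 82, which allows up to 3.66%. Human members were found in 0 of 43 mouse A cells there, which allows up to 6.98%, so this background was not resolved in the 150 library.

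In the 300 library the intervals of the 3 human clusters overlapped for each gene. MCL1 was measured at 43.5 CPM (25.4 to 69.7), 39.6 CPM (24.8 to 59.9) and 37.0 CPM (20.2 to 62.1) in clusters 1, 2 and 3. BCL2 was measured at 17.9, 14.4 and 13.2 CPM and BCL2L1 at 25.6, 23.4 and 26.4 CPM, with overlapping intervals. BAX was measured at 5.12 CPM (0.620 to 18.5), 19.8 CPM (9.87 to 35.4) and 10.6 CPM (2.88 to 27.1), from 2, 11 and 4 UMIs. In the 150 library MCL1 spread more widely, at 20.3 CPM in cluster 1, 58.3 CPM (32.6 to 96.2, 15 UMIs) in cluster 2 and 6.18 CPM (0.156 to 34.4, 1 UMI) in cluster 3, where the last pair of intervals barely overlapped. Which of these cells were Jurkat and which TALL-104 was not analysed here.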

How the data were processed

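The authors prepared Drop-seq libraries from a mixture of 4 cell lines, processed the reads with the Drop-seq tools and STAR (2.4.2a in the submitters' processing notes) against a joint hg19 and mm10 reference, and deposited UMI counts per gene and barcode. Whether the deposited counts came from reads downsampled to a common depth is not given in the sources used here. The members and lists were chosen with earlier results of these data known. Of 29259 identifiers, 0 matched the reference table (59792 human genes). Names of the 8 members come from the list that defines them, the planned marker and pathway lists were not applied, no sequence is shown, and the mouse groups carry no line name.

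Cells of each species were clustered without the members, over both libraries (10000 UMIs per cell, log, 2000 variable genes in at least 10 cells, 15 principal components, 15 neighbours, Leiden at resolution 0.5, leidenalg 0.10.2, Python 3.11.15). The 7 mouse clusters were joined into 2 groups by average linkage of summed profiles over genes with at least 100 UMIs. Cluster profiles correlated at 0.7052 to 0.9788 within a group and at 0.5428 to 0.8161 between groups, so these ranges overlapped. The sign of the first principal component placed 768 of 770 mouse cells alike. No doublet caller was run. Summed counts were tested with edgeR 4.0.16 (R 4.3.3) with TMM, filterByExpr and Benjamini-Hochberg adjustment at 0.05, and with DESeq2 1.42.0 as an alternative. The block pairs the group sums that came from 1 library. The fit was tested on simulated data. Shares use a seeded draw of 2000 UMIs per cell. The named genes were the 8 members in each group and library. The planned naming of further genes needed symbols and gave none.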

Additional observations from a re-analysis of the deposited data

Results flagged for a closer look

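Barcodes under 1000 UMIs, 1810 and 2876 in the 150 and 300 libraries, lay outside the comparisons but held member UMIs above the 3 that a count of 0 allows. Over both libraries they held 116 UMIs of Bcl2, 624 of Mcl1, 35 of Bcl2l1, 284 of Bax, 18 of BCL2, 31 of MCL1, 13 of BCL2L1 and 4 of BAX. Bcl2 was measured there at 86.6 CPM (95% Poisson interval 62.2 to 118) and 58.6 (46.1 to 73.5), which overlaps the levels of mouse A cells. Mcl1 was measured at 259.9 (216 to 310.1) and 391 (358 to 427), between the levels of mouse A and mouse B cells in each library. Bax was measured at 118 (89.4 to 154) and 178 (156 to 203). In these barcodes, free RNA and shallow cells cannot be told apart.

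The level of Bcl2 in the 300 against the 150 library moved in opposite directions in the mouse groups. The log2 ratio was −0.25 in mouse A and 0.36 in mouse B, a difference of −0.609. The difference was not tested, and the ratio in mouse B rests on 2 and 13 UMIs, with a counting interval from 0.29 to 11.7 for a ratio of 1.28.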

How the results depend on the processing

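The calls of Bcl2, Mcl1 and Bcl2l1 between the mouse groups, and the lack of one for Bax, were recomputed under each planned fit that could be run and 1 fit added after seeing the data. All kept their direction, and only Bcl2l1 lost its call, with DESeq2 (−2.71, adjusted p 0.089). The added fit left out the mouse B cluster with the most Bcl2 UMIs, which had to widen the Bcl2 difference. For Bcl2 that fit is therefore no check. The number of genes called was 5064 of 8925, fell to 1738 of 10359 with DESeq2 and lay within 1.5 times otherwise. Without the replicate block 3497 genes were called and no member changed its call. The adjusted p-values (edgeR) were then 9.48e-07 for Bcl2, 5.04e-06 for Mcl1 and 0.000188 for Bcl2l1, larger than with the block. In each library alone, a ratio with no test, the log2 difference ran from 3.625 to 4.233 for Bcl2, −3.13 to −2.701 for Mcl1, −2.836 to −2.551 for Bcl2l1 and −0.381 to −0.107 for Bax. Of 96 recomputed levels 94 stayed within their counting interval. With cells weighted equally, Mcl1 in mouse A in the 150 library moved from 41.7 to 83.54 and Bax in mouse B in the 300 library from 160 to 187.5 CPM. Of 72 recomputed shares of cells 29 moved, each on thinning to 1000 UMIs or not thinning, BAX in the 300 library from 3.55% to 0.314% among them. Assignment by marker genes was not run, as identifiers carried no symbols. Counts of 2 to 20 UMIs limit Bcl2 in mouse B, Bcl2l1 in mouse A and the human members in the 150 library. The same holds for Bcl2l1 in mouse B in the 150 library and for BCL2 and BAX in the 300 library.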
